A study of Sus scrofa with 45 samples.

Results

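ABCB4 encodes the transporter MDR3, a member of subfamily B of the ATP-binding cassette (ABC) proteins. It is best known from the canalicular membrane of the hepatocyte, where it moves phosphatidylcholine to the outer leaflet so that bile salts can carry this phospholipid into bile. Its close relative ABCB1 (P-glycoprotein, MDR1) is a drug efflux pump, and ABCB11 exports bile salts from the same hepatocyte membrane. ABCB4 was selected on measured values of these arrays, its difference between the high-fat, high-cholesterol diet and control in whole blood at 19 weeks. All probes whose annotation names ABCB4 were taken, which was 1 probe (A_72_P075041, 1 spot per array) of the 43603 probes on the array.

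The 45 Agilent porcine microarrays, read in 1 colour, came from male Clawn miniature pigs fed from 12 weeks of age with a standard feed (control), with a high-fat, high-cholesterol diet containing lard and cholesterol (HFCD), or with the same additions plus sucrose (HFCSD). RNA was taken from whole blood after 10, 19 and 27 weeks of feeding and from white blood cells held on a filter at 27 weeks. Each of the 12 groups had 4 arrays, except HFCSD at 19 weeks and HFCD and HFCSD at 27 weeks in whole blood, which had 3 arrays each. Values below are log2 intensities after quantile normalization over the 45 arrays, and an array counted as measuring ABCB4 where the scanning software marked the spot as well above background. With 3 or 4 arrays in a group, every value below is imprecise.

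ABCB4 was measured in whole blood and not in white blood cells. The spot was well above background on 32 of 33 whole blood arrays and on 0 of 12 white blood cell arrays. On the whole blood arrays that measured it the normalized log2 intensity ran from 3.67 to 8.37, and the median of all 33 was 6.13. On the white blood cell arrays the spot gave 1.42 to 2.44 with a median of 1.92, which is background. Before normalization the processed intensity lay between 7.95 and 153 in whole blood and between 4.03 and 10.3 in white blood cells.

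At 10 weeks the 4 control arrays read 5.24, 7.29, 6.13 and 6.34 for ABCB4, with a mean (SD) of 6.25 (0.84). The HFCD arrays read 4.52, 6.44, 5.41 and 3.67, with a mean of 5.01 (1.19). The HFCSD arrays read 6.76, 7.14, 5.79 and 5.51, with a mean of 6.30 (0.77). ABCB4 thus overlapped between all 3 diets at this feeding period, with the lowest arrays in HFCD.

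At 19 weeks, the period on which ABCB4 was selected, the control arrays read 6.81, 5.0, 4.50 and 4.15, with a mean of 5.11 (1.18). The HFCD arrays read 3.59, 6.77, 7.45 and 8.16, with a mean of 6.49 (2.02). The HFCSD arrays read 6.2, 4.45 and 5.04, with a mean of 5.23 (0.89). Of the HFCD arrays, replicates 3 and 4 were among the brightest for ABCB4, replicate 2 read like control replicate 1, and replicate 1 was the dimmest of all whole blood arrays, the only one not well above background.

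At 27 weeks in whole blood the control arrays read 4.84, 4.85, 4.64 and 6.28, with a mean of 5.15 (0.76). The HFCD arrays read 4.91, 7.89 and 7.16, with a mean of 6.65 (1.55). The HFCSD arrays read 8.37, 8.20 and 7.61, with a mean of 8.06 (0.40). Every HFCSD array lay above every control array, which held for 11.3% of the 17135 probes tested, and HFCD replicate 1 lay among the controls while the other 2 HFCD arrays lay above them.

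In white blood cells at 27 weeks the spot read 2.00, 1.98, 1.42 and 1.46 on the control arrays, 2.44, 1.72, 1.44 and 1.42 on the HFCD arrays, and 2.03, 1.85, 2.03 and 2.36 on the HFCSD arrays. The group means were 1.72 (0.32), 1.75 (0.48) and 2.07 (0.21). All of these are background readings, so no difference between diets is given for ABCB4 in white blood cells.

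**Figure D1:**
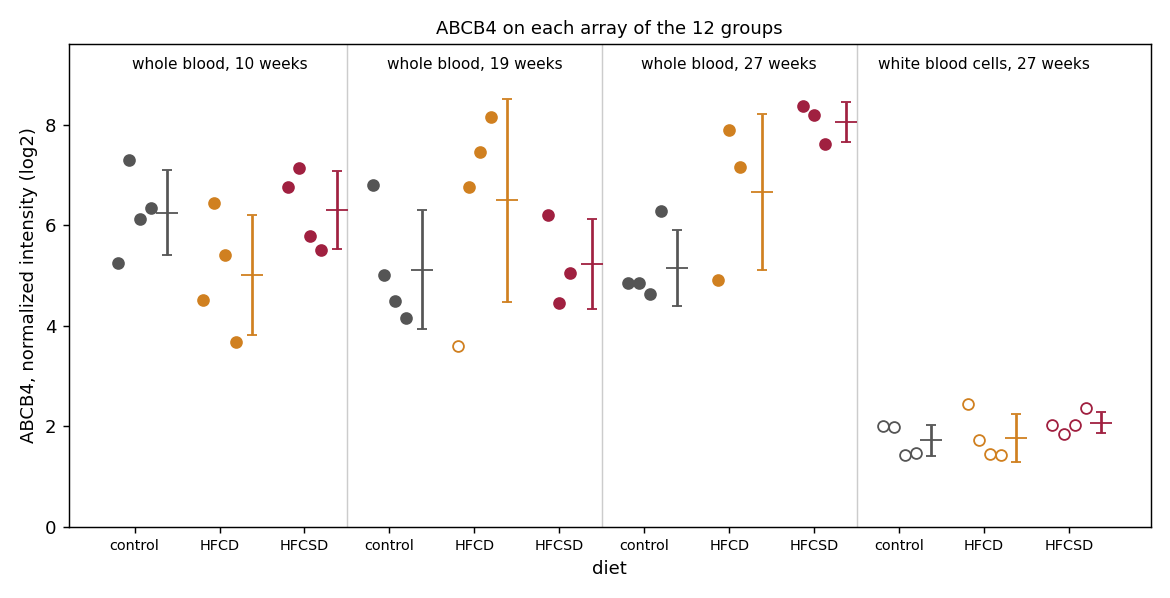
Normalized log2 intensity of ABCB4 (vertical axis) on each of the 45 arrays, by diet, feeding period and sample type (horizontal axis). Filled points are arrays on which the spot was well above background and open points are arrays on which it was not; the bars give the mean and SD of each group. Whole blood HFCSD at 27 weeks has the highest mean, 8.06, and all white blood cell arrays are at or below 2.44.

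Ordered by mean, ABCB4 was highest in HFCSD at 27 weeks, followed by HFCD at 27 weeks, HFCD at 19 weeks, HFCSD at 10 weeks, control at 10 weeks, HFCSD at 19 weeks, control at 27 weeks, control at 19 weeks and HFCD at 10 weeks, all in whole blood. The 3 white blood cell groups lay below these at background and are not ordered among themselves. Whole blood neighbours in this order were compared with the larger of their 2 SDs. ABCB4 differed by more than that SD between control at 10 weeks and HFCSD at 19 weeks (a gap of 1.02 against an SD of 0.89). Whole blood arrays of different feeding periods were on different slides and were scanned on different days. The part of slide and scan day in this gap and in the order was not tested. The other neighbours did not differ beyond their spread. Between HFCSD and HFCD at 27 weeks the gap was 1.41 and the larger SD 1.55.

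The diets were compared for ABCB4 with limma, fitted over all probes to the 3 diet groups of each feeding period, with p-values adjusted over all probes tested. The same control arrays served both diets of a period, so the differences from control are not independent of each other. At 27 weeks ABCB4 was higher under HFCSD than under control by 2.91 on the log2 scale (95% interval 1.5 to 4.32), a 7.51-fold difference, with a limma adjusted p of 0.0249. It was not called without the filter on dim probes (limma adjusted p = 0.0687). After adjustment it was also not called in the t-test named in the study's methods (adjusted p = 0.0667). The study's own limits for that test were a change of more than 2-fold and a significance limit, with no adjustment named. ABCB4 was among the 2126 probes that passed both limits before adjustment. With normexp the difference of ABCB4 was 1.77 (limma adjusted p = 0.0223). Of the 17135 probes tested in this comparison 10.6% were called, 1161 higher and 663 lower, so a call was common here. The difference of ABCB4 was nevertheless near the upper end, since 0.694% of the probes had a larger one.

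The call of ABCB4 under HFCSD rested on few arrays. Its difference stayed between 2.74 and 3.29 with each of the 7 arrays left out in turn. The limma adjusted p then passed 0.05 without control replicate 1, 2 or 3 (0.0763, 0.0640 and 0.0706) and without HFCSD replicate 1 or 2 (0.0901 and 0.0724). Without control replicate 4 it was 0.0134, and without HFCSD replicate 3 it was 0.0340.

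Under HFCD at 27 weeks the ABCB4 difference from control was 1.5 (95% interval 0.09 to 2.91, limma adjusted p = 0.893), and 0.0165% of the 18188 probes tested were called. Without HFCD replicate 1, which read like a control, it was 2.37 with a limma adjusted p of 0.120, and without HFCD replicate 2 it was 0.88 with a limma adjusted p of 0.990. HFCSD exceeded HFCD by 1.41 in ABCB4 (95% interval -0.10 to 2.92, limma adjusted p = 0.403), with 0.0111% of 18005 probes called. With the percentage of spots well above background as covariate, chosen after seeing the data, this difference was 0.05, and with normexp it was 0.93. That difference was 0.54 without HFCD replicate 1 and 2.03 without HFCD replicate 2 (limma adjusted p = 0.870 and 0.178). An effect of added sucrose on ABCB4 was therefore not resolved at 27 weeks, and differences of either 0 or more than 2 log2 units lie within the interval.

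At 10 weeks ABCB4 differed from control by -1.24 under HFCD (95% interval -2.52 to 0.04, limma adjusted p = 0.509) and by 0.05 under HFCSD (95% interval -1.23 to 1.33, limma adjusted p = 1.00). The shares of probes called were 0.0281% of 17767 and 0.0123% of 16198. HFCSD exceeded HFCD by 1.29 in ABCB4 (95% interval 0.00 to 2.57, limma adjusted p = 0.809), where limma called 0 of 17917 probes (0%), 886 had an unadjusted p under 0.05, and the t-test named in the study's methods also called 0 after adjustment. None of these 3 differences passed the test for ABCB4. When single arrays were dropped they ranged from -1.72 to -0.79, from -0.29 to 0.40 and from 0.84 to 1.77. With the percentage of spots well above background as covariate, chosen after seeing the data, they were -0.26, 0.44 and 0.71.

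The change of ABCB4 between feeding periods was tested as a difference of differences. Under HFCSD the difference from control was larger at 27 weeks than at 10 weeks by 2.86 (95% interval 0.91 to 4.81), and limma did not call it (adjusted p = 0.148; 0.00559% of 17898 probes called). Under HFCD it was larger by 2.74 (95% interval 0.79 to 4.69), from a negative value at 10 weeks to a positive one at 27 weeks, and was not called (limma adjusted p = 0.847). In that test limma called 0 of 19141 probes (0%), with 949 at an unadjusted p under 0.05. The difference between feeding periods was thus not established for ABCB4 under either diet. The study's methods name fewer pigs per diet than there were arrays of that diet, so pigs recur between periods and sample types. The labels do not tie arrays to pigs, and these tests do not model the sharing.

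The values at 19 weeks chose the gene and are a description without a test. There, ABCB4 differed from control by 1.38 under HFCD and by 0.12 under HFCSD, and by -1.26 between HFCSD and HFCD. Without HFCD replicate 1 the first of these was 2.35 and the last -2.23. Without HFCD replicate 4 they were 0.82 and -0.71. Control replicates 2, 3 and 4 of this period went through the scanner on a separate day, and only control replicate 1, which read 6.81 for ABCB4, shared the scan day of the diet arrays. With the scan day as a term the ABCB4 difference from control was -0.31 under HFCD and -1.58 under HFCSD, values that rest on that 1 control array.

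The white blood cell preparation was compared with whole blood at 27 weeks, diet by diet. Since the ABCB4 spot was at background in white blood cells, the fold is a lower limit, taken against the dimmest probe well above background on each array. ABCB4 was at least 3.60-fold lower in white blood cells than in whole blood in the control group, at least 8.29-fold lower in the HFCD group and at least 26.4-fold lower in the HFCSD group. When single arrays were dropped, the limits ranged from 2.78 to 4.06, from 5.40 to 15.2 and from 23.7 to 30.8, and the HFCD limit was highest without whole blood replicate 1 and lowest without replicate 2. These limits hold for the normalization used: with normexp and an offset the log2 differences were -0.65, -1.52 and -2.38, which are smaller than the limits. The probe entered these comparisons through whole blood alone, where it was bright, so no p-value is given for it. Over all probes limma called 45.3% of 19022 in the control group, 47.5% of 19414 in the HFCD group and 58.8% of 19689 in the HFCSD group. Every whole blood array lay above every white blood cell array, as for 10.2% of the probes. Whole blood and white blood cells differed in extraction kit and in scan day, so sample type, kit and scan day cannot be told apart. In such mixed samples fewer cells of a type and less RNA per cell cannot be told apart either.

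At 27 weeks ABCB4 was mostly higher on arrays with fewer bright spots, that is, spots well above background. In whole blood this share was 39.6%, 38.8% and 39.7% on the HFCSD arrays. It was 38.9% on control replicate 4, the control array with the highest ABCB4 reading, and 50.2%, 49.4% and 46.5% on the other control arrays. On the HFCD arrays it was 48.9%, 43.6% and 46.0%, and the first of these was the array with the low ABCB4 reading. The order was not strict, since HFCD replicate 3 (46.0%) read 7.16 and control replicate 3 (46.5%) read 4.64, and at 19 weeks HFCSD replicate 3, with 38%, read 5.04. With this share as a covariate, an alternative chosen after seeing the data, the HFCSD difference of ABCB4 was 1.53 with a limma adjusted p of 0.270, and limma called 0 of the 17135 probes, with 2839 at an unadjusted p under 0.05. The covariate and the diet go together at 27 weeks, and the part of either in the ABCB4 difference cannot be told apart.

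**Figure D2:**
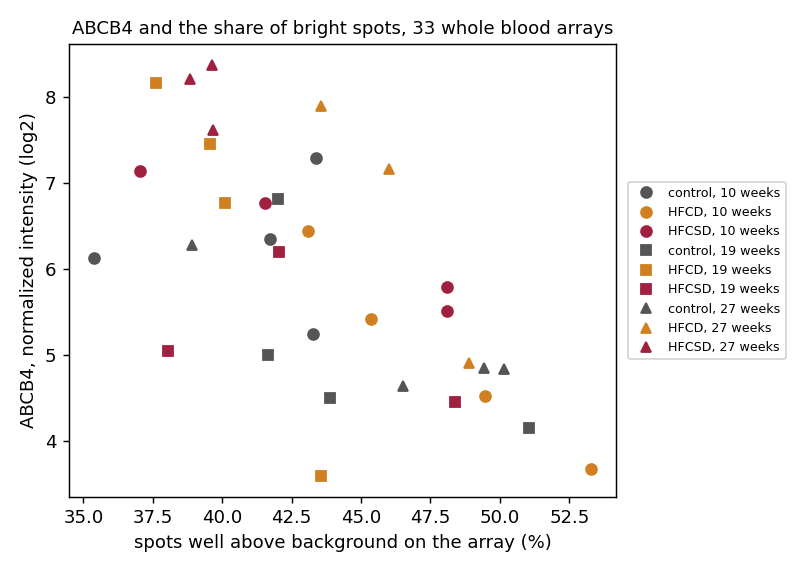
Normalized log2 intensity of ABCB4 (vertical axis) against the percentage of probe spots well above background (horizontal axis) on the 33 whole blood arrays, with diet by colour and feeding period by symbol. The 3 HFCSD arrays of 27 weeks sit near 39% with ABCB4 between 7.61 and 8.37, and control replicate 4 of the same period sits at 38.9% with 6.28.

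Genes that behaved most like ABCB4 were sought among 21128 other probes that were well above background on every array of at least 1 group. Over the 45 arrays the named genes with the highest Pearson r with ABCB4 included CMAH (0.983), BMPR1B (0.976), ITGB8 (0.973) and SLC2A11 (0.968). CMAH hydroxylates a sialic acid, BMPR1B is a receptor for bone morphogenetic proteins, ITGB8 is an integrin chain, and SLC2A11 is a sugar transporter. Over the 12 group means the highest included ITGB8 (0.993), BMPR1B (0.992), CMAH (0.991) and CYP19A1 (0.985), the last of which is aromatase. Over the deviations of the 45 arrays from their group means, which hold no difference between groups, they included SLC2A11 (0.946), CMAH (0.944), XCR1 (0.939) and HSD17B4 (0.932). XCR1 is a chemokine receptor, and HSD17B4 is a multifunctional enzyme of the peroxisome. Of probes without a gene symbol, A_72_P123901 and A_72_P043931 were closest to ABCB4 over the arrays (0.985 and 0.984), A_72_P351293 and A_72_P022996 over the group means (0.996 and 0.995), and A_72_P312408 and A_72_P123901 over the deviations (0.959 and 0.958). The points share arrays, slides and normalization, and the difference between sample types alone raises r over arrays and means.

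ABCB4 had many such companions. An r of at least 0.9 over the 45 arrays, a limit chosen after the values were seen, was reached by 772 probes, 3.65% of those compared, and an r of -0.9 or below by 45 probes. Over the deviations from group means 100 probes (0.473%) reached it on the 45 arrays and 513 (2.43%) on the 33 whole blood arrays. Of all probes compared, the median r with ABCB4 over the arrays was -0.29. The named genes running most against ABCB4 were OSTF1 (-0.940), UIMC1 (-0.918) and the ribosomal protein genes RPS28 (-0.910), RPS23 (-0.903) and RPS16 (-0.899), which were also picked after the values were seen. The likeness to ABCB4 was thus more common over the arrays, which include the difference between sample types, than within groups.

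Of the 7 named genes given above as most like ABCB4, 5 rose under HFCSD at 27 weeks and 0 fell. CMAH differed by 2.70, BMPR1B by 2.37, ITGB8 by 2.64, CYP19A1 by 2.45 and HSD17B4 by 2.08 (limma adjusted p = 0.0332, 0.0470, 0.0376, 0.0305 and 0.0288). CYP19A1 was well above background on 2 of 4 control arrays and on 3 of 3 HFCSD arrays. It entered this comparison through HFCSD alone, where it was higher, so its call is no evidence of a difference. SLC2A11 differed by 2.76 and XCR1 by 2.33, and limma called neither (adjusted p = 0.0607 for both). Since these genes were picked for likeness to ABCB4 on the same arrays, their counts are no independent evidence. Under HFCD at 27 weeks limma called 0 of the 7, under HFCSD at 10 weeks 0 of the 7 and under HFCD at 10 weeks 0 of the 6 tested, in comparisons where it called 0.0165%, 0.0123% and 0.0281% of all probes, so these counts say nothing about the genes. Unlike ABCB4, 4 of these 7 genes (CMAH, ITGB8, XCR1 and HSD17B4) were well above background on all white blood cell arrays. CMAH, for example, had means of 5.97 (0.10), 6.31 (0.26) and 6.85 (0.53) in the control, HFCD and HFCSD groups.

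The relatives of ABCB4 were read beside it, without a test of a difference from ABCB4. Of 11 genes of ABC subfamily B, 5 had a probe, and ABCB11 and the mitochondrial transporter ABCB8 were well above background on 0 of 45 arrays. ABCB1, which neighbours ABCB4 in the RefSeq annotation of Sscrofa11.1, was well above background on 30 of 33 whole blood and 12 of 12 white blood cell arrays. At 27 weeks in whole blood ABCB1 read 5.02, 5.36, 5.88 and 3.91 in control, 5.61, 4.45 and 5.56 in HFCD, and 4.70, 4.72 and 4.79 in HFCSD. Control replicate 4, which was highest of the controls in ABCB4, was lowest in ABCB1, where its spot was not well above background. Under HFCSD the ABCB1 difference from control was -0.31 (limma adjusted p = 0.634), and ABCB1 was not lower in white blood cells, with differences from whole blood of 0.87, 0.85 and 1.22 in the control, HFCD and HFCSD groups (limma adjusted p = 0.101, 0.131 and 0.0284). In the control group ABCB1 entered the comparison with whole blood through white blood cells alone, because of control replicate 4. The filter thus favoured a higher reading in white blood cells there, and that result is no evidence. TAP1, a peptide transporter of antigen presentation, had 2 probes, and limma did not call the 1 that was tested under HFCSD at 27 weeks.

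The probe sequences are shown because the relatives of ABCB4 are similar genes, and a shared stretch would let one transcript be read by the probe of another. Capitals mark the longest run of bases shared with the ABCB4 probe (in the ABCB4 probe, the first run of that length found with a relative).
ABCB4: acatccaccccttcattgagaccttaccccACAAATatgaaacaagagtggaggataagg
ABCB1: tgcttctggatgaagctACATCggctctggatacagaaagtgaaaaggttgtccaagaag
ABCB11: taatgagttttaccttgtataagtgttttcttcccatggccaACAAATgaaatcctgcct
The ABCB4 probe shared a run of 5 bases with that of ABCB1 and of 6 with that of ABCB11, and at best 20 of 60 positions with either when aligned without gaps. Of the other probes of the array, 0 shared a run of 16 bases with it on either strand. Its GC content was 45%, against a median of 40% over the probes compared with ABCB4 and of 43.3% over the 772 probes with an r of at least 0.9. Whether the probe also binds transcripts of other genes was not tested, since no genome or transcript sequences were at hand.

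Other genes of the processes in which ABCB4 takes part were mostly not measurable in blood. Of 16 genes of bile formation 8 had a probe, and FABP6, a bile acid binding protein, was the only one well above background on every array of a group. Of 22 genes of phosphatidylcholine synthesis and movement 3 had a probe and were tested. Under HFCSD at 27 weeks, when ABCB4 rose, 2 of these rose and 0 fell, with a median difference of 1.0, in a comparison where 10.6% of all probes were called. They were PLTP, the phospholipid transfer protein of plasma (2.19, limma adjusted p = 0.0241), and PEMT, which makes phosphatidylcholine by methylation (1.0, limma adjusted p = 0.0288), while CHKB, a choline kinase, differed by -0.48 (limma adjusted p = 0.154). The 2 probes of PEMT were unlike in their r with ABCB4 over the 45 arrays (0.497 and -0.445), so the 1 value given need not hold for both.

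Of 13 nuclear receptors and partners known to act on ABCB4 or its relatives, 9 had a probe and 3 (NR1H3, PPARD and RXRA) were well above background on every array of a group. Of the 2 tested under HFCSD at 27 weeks, when ABCB4 rose, limma called 0, against 10.6% of all probes. PPARD, a fatty acid receptor, differed there by 1.60 (limma adjusted p = 0.0566). Like ABCB4 it was lower in white blood cells than in whole blood, by a log2 difference of -2.58, -3.37 and -4.59 in the control, HFCD and HFCSD groups (limma adjusted p = 0.000425, 7.64e-05 and 2.27e-06), in comparisons where 45.3%, 47.5% and 58.8% of all probes were called. NR1H3, the liver X receptor alpha, and RXRA, its partner, read higher in white blood cells in all 3 diets, the opposite of ABCB4. Limma did not call 1 of the 2 NR1H3 probes in the HFCSD group (0.87, adjusted p = 0.0622). Only 2 of the 3 receptors were tested in whole blood under HFCSD at 27 weeks. NR1H3 or RXRA therefore entered the control and HFCSD comparisons of sample types through white blood cells alone, where it was higher. The calls of a gene that entered so are no evidence of a difference.

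Of 35 other ABC transporters 14 had a probe and 4 were tested. ABCA1, which exports cholesterol to high-density lipoprotein particles, rose under HFCD and HFCSD at 27 weeks by 2.42 and 2.29 (limma adjusted p = 0.00207 and 0.00409) and at 10 weeks by 2.38 and 1.98 (limma adjusted p = 0.00121 and 0.0105), whereas ABCB4 was called under HFCSD at 27 weeks alone, and a difference between these genes was not tested. The other 3 genes (ABCF1, ABCF3 and ABCG2) were not called in any of these comparisons. Of 16 interferon-induced genes tested, 4 rose under HFCSD at 27 weeks and 0 fell (10.6% of all probes called), with a median of 0.58, and 0 were called under HFCD, with a larger median of 1.16, where 0.0165% of all probes were called, so that the count of 0 says nothing about these genes.

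Markers of cell types were read beside ABCB4. Of 10 genes of red cell precursors 3 had a probe, and HBA1, a globin gene, was well above background on 1 of 45 arrays, so in whole blood the sum of the list was carried by KLF1, a transcription factor of red cell precursors. At 27 weeks in whole blood the summed intensity of this list was 102, 134, 100 and 241 on the control arrays, 82.1, 209 and 251 on the HFCD arrays, and 561, 368 and 530 on the HFCSD arrays. It was thus highest where ABCB4 was highest, and control replicate 4 and HFCD replicates 2 and 3 stood above the rest of their groups in both. KLF1 rose under HFCSD by 1.91 (limma adjusted p = 0.0336), its r with ABCB4 over the 45 arrays was 0.870 (that of EPOR, the other gene of the list with an r, was -0.212), and it was lower in white blood cells in all 3 diets, by a log2 difference of -1.33, -1.50 and -2.79 (limma adjusted p = 0.00921, 0.00665 and 2.35e-05). At 19 weeks HFCD replicate 4 was high in both (a sum of 728 and 8.16 for ABCB4), while HFCSD replicate 3 had a sum of 506 and read 5.04 for ABCB4. Under HFCD, KLF1 differed from control by 0.02 at 19 weeks and by 0.30 at 27 weeks, against 1.38 and 1.5 for ABCB4. The part of red cell precursors in the ABCB4 values was not tested.

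Hepatocyte markers, of interest because ABCB4 is known from liver, had a probe for 13 of 18 genes. ALB, SERPINA1, TTR, APOB and FGG were not well above background on any array of 27 weeks. The summed intensity of the list was 419, 297, 414 and 405 on the control arrays of whole blood at 27 weeks, 280, 559 and 321 on the HFCD arrays and 592, 485 and 478 on the HFCSD arrays, with TF, HP, RBP4 or APOC3 as the brightest gene. APOC3, an apolipoprotein, rose under HFCSD by 1.96 (limma adjusted p = 0.0264) and had an r of 0.877 with ABCB4 over the 45 arrays. The other hepatocyte probes had an r of 0.675 (RBP4), 0.476 and 0.0202 (TF), -0.361 and -0.286 (HP) and -0.814 (F2). Of the 3 hepatocyte genes tested in that comparison it was the only one called, against 10.6% of all probes.

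Markers of leukocytes and platelets were compared with ABCB4 under HFCSD at 27 weeks. Limma called 0 of 2 B cell genes, 0 of 6 T cell genes, 0 of 2 NK cell genes, 0 of 4 monocyte genes, 0 of 4 neutrophil genes and 0 of 5 platelet genes, against 10.6% of all probes, a share at which lists this small can hold 0 calls. The median differences were -0.49, 0.14, -0.26, 0.04, -0.35 and -1.24 in the same order, against 2.91 for ABCB4 and -0.21 over all probes. In white blood cells, where ABCB4 was at background, the summed intensity of the T cell list was 7492 to 15981 and that of the neutrophil list 40493 to 78119.

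**Figure D3:**
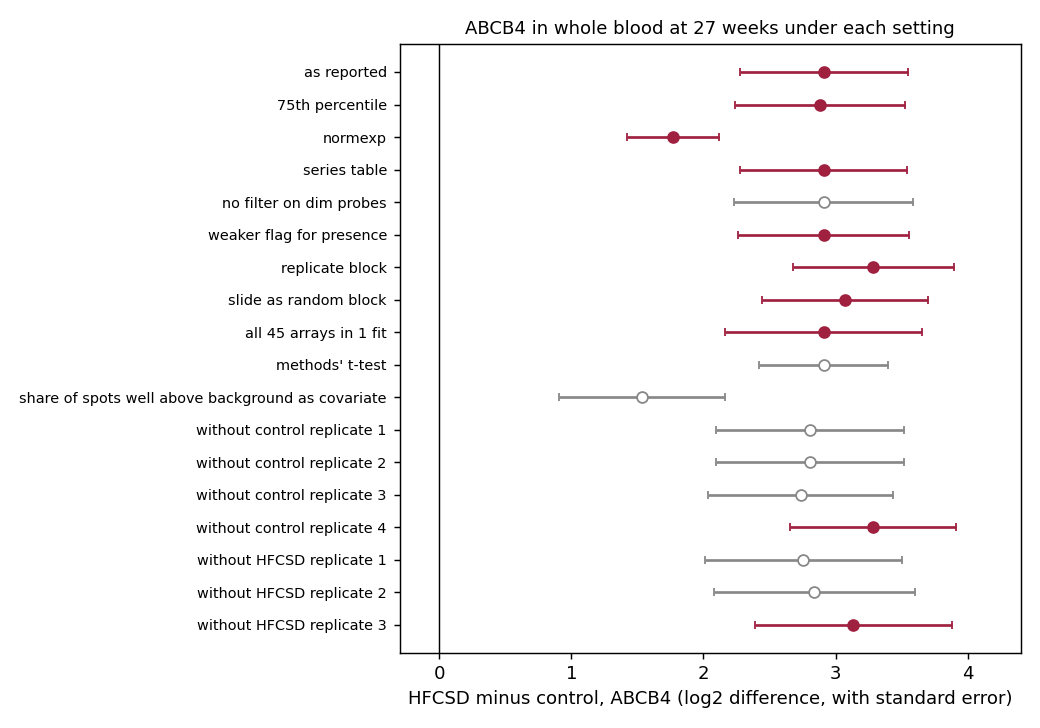
Difference of ABCB4 between HFCSD and control in whole blood at 27 weeks (horizontal axis, log2, with its standard error) under each setting (vertical axis). Filled points passed adjustment at 0.05 and open points did not. All values lie above 0, between 1.53 with the covariate and 3.29 without control replicate 4.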

How the data were processed

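ABCB4 and the gene lists were chosen with earlier results of these data known. The authors scanned the arrays and deposited spot intensities from Feature Extraction (version 10.5.1.1 in the files), with background subtracted within each array, and a series table of intensities that they had quantile normalized. Here the log2 of the deposited processed intensities was quantile normalized over 45 arrays, spots marked as outliers were dropped, and repeated spots were averaged by probe. Groups followed the deposited labels, and no array was left out. A probe was tested if it was well above background on every usable array of at least 1 group compared. Tests used limma 3.58.1 (R 4.3.3) with Benjamini-Hochberg adjustment at 0.05, and the fit was run on simulated data with known changes, where most were found and a few calls were false. Python 3.11.15, numpy 2.4.6, pandas 2.3.3 and matplotlib 3.10.9 served for the rest. Genes most like ABCB4 were the 5 named genes and 2 unnamed probes with the highest Pearson r by each of 3 measures (not all are printed), and other named genes came from the lists. Alternatives were other normalizations, presence rules, blocks and tests, a covariate, and each array left out in turn.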

Additional observations from a re-analysis of the deposited data

Results flagged for a closer look

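In whole blood at 27 weeks, control replicate 4 read 6.28 for ABCB4, and the next control array read 4.85. This gap was 0.871 of the range of the group, past Dixon's 95% critical value for 4 arrays. Of 9 groups of 4 arrays this was the only one so marked for ABCB4, and chance marks about 1 in 20 groups. The gap was in the normalized values alone. Before normalization the processed intensities of control replicates 1, 2, 3 and 4 were 35.7, 30.7, 23.2 and 36.8. Control replicate 4 had the lowest share of spots well above background among the controls of its period (38.9%) and the highest summed intensity of red cell precursor markers (241). Without it the ABCB4 difference between HFCSD and control was 3.29 in place of 2.91 (limma adjusted p = 0.0134). The part of the share of spots and of the markers in this reading was not tested.

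The same screen covered ABCB1, with 0 groups marked, and ABCB11, with 5 of 9 groups marked. The ABCB11 readings were 2.08 in whole blood control at 10 weeks (replicate 1, next 1.45), 1.89 in HFCD at 10 weeks (replicate 4, next 1.41) and 2.74 in HFCD at 19 weeks (replicate 1, next 1.49). In white blood cells they were 1.63 in control (replicate 2, next 1.41) and 1.84 in HFCD (replicate 2, next 1.40). ABCB11 was at background on all 45 arrays, so these gaps lie within background readings. After these marks had been seen ABCB11 was first taken out of the screen, and it was then put back.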

How the results depend on the processing

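The ABCB4 difference between HFCSD and control at 27 weeks in whole blood kept its direction under all 10 other settings, and its limma adjusted p, 0.0249 as reported, ranged from 0.0141 to 0.270. It was no longer called without the filter on dim probes (2.91, limma adjusted p = 0.0687, with more probes tested). The same held after adjustment in the methods' test of the 2 groups (2.91, adjusted p = 0.0667). Before adjustment, which the study does not name, ABCB4 passed the study's own limits in that test. With the percentage of bright spots as covariate, a setting added once the data had been seen, the call was also lost (1.53, limma adjusted p = 0.270). With the replicate number as a block the difference was 3.29 and with the slide as a random block 3.07. Same-numbered arrays were not shown to be pairs, since correlations of same-numbered arrays between groups ran from -0.44 to 0.63. Those of HFCSD at 10 and 27 weeks were all above 0.1 (0.33, 0.19 and 0.50), those of control at the same periods were not (-0.14 to 0.18), and the block left the HFCSD change between the periods uncalled (2.78, limma adjusted p = 0.136). With normexp (offset 50) the HFCSD difference from control at 27 weeks was 1.77, and the distance between the highest group mean and the lowest, which is a background reading, was 2.45 in place of 6.35. With normexp the differences of white blood cells from whole blood were -0.65, -1.52 and -2.38 (control, HFCD, HFCSD), smaller than the lower limits reported. Leaving out single arrays, the HFCSD difference ranged from 2.74 to 3.29 and was called in 2 of 7 fits, with limma adjusted p from 0.0134 to 0.0901. That between HFCSD and control at 10 weeks ranged from -0.29 to 0.40 and was negative in 3 of 8 fits (-0.29, -0.10 and -0.23). With the scan day as a term the 19-week differences from control were -0.31 under HFCD and -1.58 under HFCSD, and with single arrays left out they ranged from 0.82 to 2.35 and from -0.37 to 0.68. The cause of these shifts was not tested. The other tested differences of ABCB4 kept their side of the threshold and direction in every setting and fit run, but the covariate of bright spots made several smaller: HFCD minus control at 10 weeks was -0.26 in place of -1.24, HFCSD minus HFCD 0.71 in place of 1.29 at 10 weeks and 0.05 in place of 1.41 at 27 weeks, and the change from 10 to 27 weeks 1.62 in place of 2.74 under HFCD and 1.31 in place of 2.86 under HFCSD. Normexp also made them smaller: in the same order they were -0.48, 0.54, 0.93, 1.32 and 1.71, and HFCD minus control at 27 weeks was 0.84. Differences between diets in white blood cells, and of diet changes between sample types, were left out because the spot was at background. Spots near background limit the precision of the lowest readings.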
